A study of Homo sapiens with 3 samples.

Results

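Aminoacyl-tRNA synthetases are the enzymes that load each tRNA with its amino acid before translation. Their genes were followed in HepG2, a human line from a hepatocellular carcinoma, labelled wild type. Of 62680 gene rows, 38 were taken by name: symbols made of the letter of an amino acid and ARS with or without a final digit, and EPRS1, FARSA and FARSB. Of these, 21 encode cytosolic and 17 mitochondrial enzymes. Cells had 20 µM A740003, 20 µM A438079 or PBS, the control, for 48 h. P2X7 is a channel opened by extracellular ATP, and the series' text names each compound as a specific blocker of it. The solvent of the compounds was not given. Each treatment was 1 library, so no p-value was possible, intervals cover counting error only, and what an independent culture would add is unknown. Bulk libraries cannot tell fewer cells from less RNA per cell.

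Synthetases fall into class I and class II, which have unrelated catalytic folds. In human cells most amino acids have separate nuclear genes for the cytosolic and the mitochondrial enzyme. GARS1 and KARS1 serve both compartments from 1 gene. Several cytosolic enzymes sit in a multisynthetase complex held by the scaffold proteins AIMP1, AIMP2 and EEF1E1. Transcription factor ATF4, made when amino acids run short, is known to switch on many cytosolic synthetase genes through a site called the C/EBP-ATF response element.

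That element was looked for because it bears on which members may move together. The letters TGATGNAAN were searched on both strands of RefSeq promoter windows (GRCh38.p14, 250 bases before to 50 after a gene's start). Windows were at hand for 30 members, and not for AARS2, LARS1, TARS3, VARS1, VARS2 and YARS1 among others. The letters stood in 7 of 16 cytosolic members (43.8%) and in 1 of 14 mitochondrial members (7.14%), YARS2. Over all genes with a window the share was 4.45%, and over all windows 3.61%. The sites are shown with 10 bases on each side, 5′ to 3′ on the gene's strand, and the capitals mark the 9 matched letters, which lie in the searched order in NARS1 and YARS2 and as the reverse complement in the others.
AARS1: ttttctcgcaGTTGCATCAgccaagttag
CARS1: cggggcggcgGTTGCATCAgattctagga
GARS1: ttacgcggcgATTTCATCAtgctccgagc
IARS1: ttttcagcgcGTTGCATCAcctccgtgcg
MARS1: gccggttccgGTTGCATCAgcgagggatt
NARS1: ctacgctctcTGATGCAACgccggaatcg
TARS1: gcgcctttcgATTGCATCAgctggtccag
YARS2: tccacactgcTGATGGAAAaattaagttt
The printed stretches lie at chr16:70289676-70289704 (minus strand, AARS1), chr11:3057408-3057436 (minus, CARS1), chr7:30594834-30594862 (plus, GARS1), chr9:92293693-92293721 (minus, IARS1), chr12:57488053-57488081 (plus, MARS1), chr18:57621804-57621832 (minus, NARS1), chr5:33440956-33440984 (plus, TARS1) and chr12:32756076-32756104 (minus, YARS2). In CARS1, GARS1, IARS1, MARS1, NARS1 and TARS1 the match began within 34 bases of the start. In AARS1 and YARS2 it began 188 and 197 bases before it. A match is a description of letters, not a binding site shown in these cells.

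The libraries held 19375462 to 19735540 expected counts. All 10 hepatocyte and HepG2 markers were measured, with 5.98 to 7617 mean CPM (counts relative to library size, scaled with TMM). Of the markers of other cells, PTPRC, VWF, COL1A1 and COL1A2 had 0 counts in every library, and PDGFRB had 2 to 10. The exceptions were CD68, at 34.8 mean CPM, and LYZ, at 976. PECAM1, also listed, matched no gene row by name.

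All 38 members passed the filter of a mean of at least 1 CPM, and the lowest had 5.37. They took 0.481% of counts with PBS (exact binomial 95% interval 0.478% to 0.484%), 0.513% with A740003 (0.509% to 0.516%) and 0.514% with A438079 (0.511% to 0.517%). The share was higher in both antagonist libraries than in the PBS library by more than counting error.

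Levels were compared between genes as FPKM, the authors' value per length and depth. The median cytosolic member stood at 80.8 FPKM with PBS, 83.9 with A740003 and 86.7 with A438079. The median mitochondrial member stood at 18.3, 16.3 and 17.2 FPKM. QARS1, which loads glutamine in the cytosol, was the highest with PBS, at 185 FPKM, and had 192 with A740003 and 180 with A438079. KARS1, the lysine enzyme of both compartments, had 164, 149 and 161 FPKM in the PBS, A740003 and A438079 libraries. NARS1, the cytosolic asparagine enzyme, had 153, 187 and 188 FPKM in the same order. These 3 led in every library, and NARS1 passed KARS1 in both antagonist libraries and QARS1 in the A438079 library.

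AARS2, the mitochondrial alanine enzyme, was the lowest in all 3 libraries, at 2.28 FPKM with PBS, 1.36 with A740003 and 1.17 with A438079. PARS2, the mitochondrial proline enzyme, followed with 2.95, 2.22 and 2.52 FPKM. WARS2, the mitochondrial tryptophan enzyme, had 6.63, 7.46 and 7.60 FPKM. IARS2, the mitochondrial isoleucine enzyme, stood apart from the other mitochondrial members at 77.9, 101 and 95.9 FPKM.

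For amino acids with separate enzymes in both compartments, the cytosolic gene was set beside its mitochondrial counterpart, which gave 17 gene pairs. EPRS1, which loads both glutamate and proline, was left out of these pairs. With PBS it had 62.3 FPKM, against 49.8 for EARS2, the mitochondrial glutamate enzyme, and 2.95 for PARS2. With PBS the cytosolic level was the higher in 15 of 17 pairs, and the median ratio was 3.32. The widest gap was for alanine, with AARS1 at 35.4 times AARS2 with PBS. The exceptions with PBS were cysteine, with CARS1 at 0.572 times CARS2, and TARS3 at 0.673 times TARS2. For valine the levels were close with PBS (VARS1 at 1.01 times VARS2), and VARS1 stood at 0.478 times VARS2 with A740003 and 0.668 times with A438079. Valine was the 1 pair of the 17 whose order differed between PBS and the antagonist libraries.

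**Figure D1:**
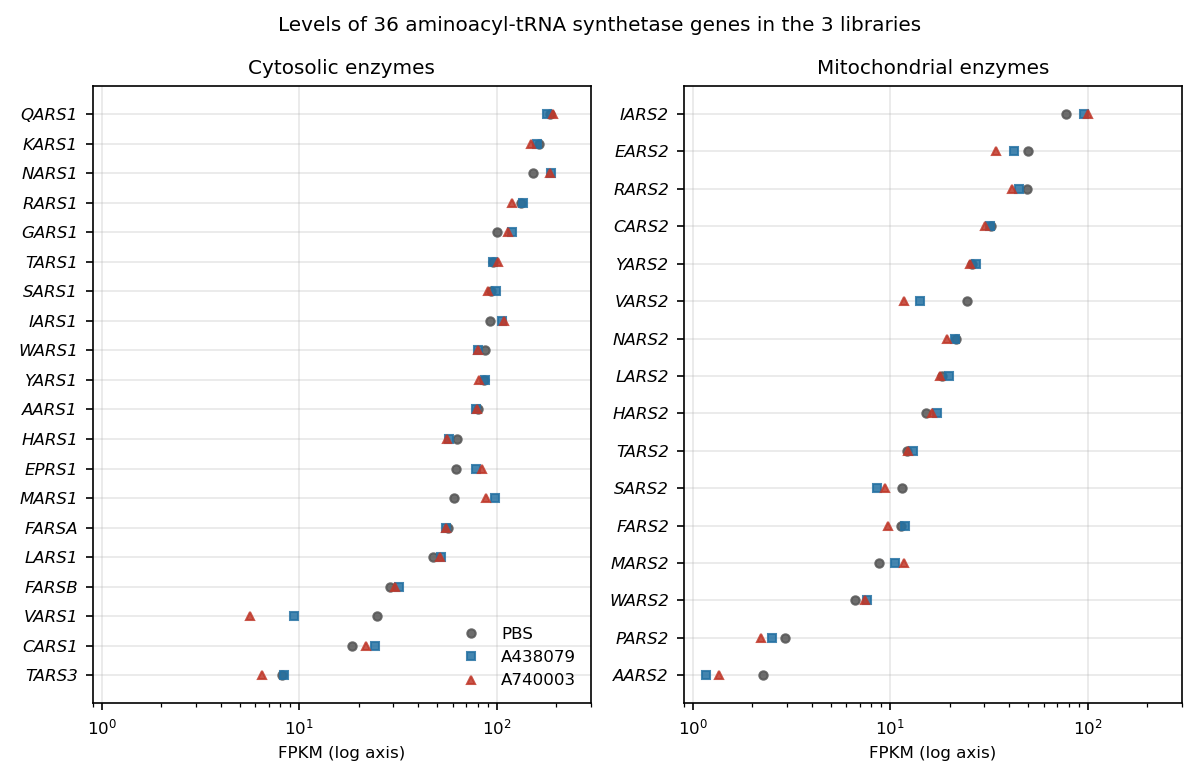
Level of 36 of the 38 genes in the 3 libraries, in FPKM on a log axis, with cytosolic enzymes on the left and mitochondrial enzymes on the right, each sorted by the PBS library. Circles are the PBS library, squares A438079 and triangles A740003, each a single library without error bars. VARS1 stands at 24.6 FPKM with PBS, 9.41 with A438079 and 5.62 with A740003. QARS1, KARS1 and NARS1 are the highest cytosolic enzymes in every library, and IARS2 is the highest mitochondrial enzyme.

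The first question was how each antagonist library differed from PBS. VARS1, VARS2 and AARS2 were at least 1.5-fold lower in both antagonist libraries with a 95% counting interval that excluded 1, and no member was at least 1.5-fold higher. Among all 12270 genes tested, 10.6% were that much lower with A740003 and 9.44% with A438079, against 3 of 38 members in each. The shares of genes that much higher were 3.19% and 1.62%. Both comparisons use the same PBS library, so they are not independent. The remaining 35 members stood between 0.756 and 1.35 times PBS with A740003 and between 0.841 and 1.26 times with A438079.

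VARS1 (ENSG00000204394; GRCh38, chromosome 6, 31777518 to 31795953, minus strand) encodes the cytosolic valine enzyme. It had 1151 counts with PBS, 468 with A438079 and 340 with A740003. Both antagonist libraries lay below PBS, the A740003 library lowest. Over PBS its ratio was 0.289 (95% interval 0.255 to 0.326) in the A740003 library, and 0.407 (0.365 to 0.454) in the A438079 library. Its counts were whole in all 3 libraries, and no overlapping gene had a count. Of 12270 genes, 152 had a lower log2 ratio with A740003 and 216 with A438079.

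VARS2 (ENSG00000137411; chromosome 6, 30908242 to 30926459, plus strand) encodes the mitochondrial valine enzyme. It had 990 counts with PBS, 641 with A438079 and 624 with A740003. The antagonist libraries were alike and below PBS. For A740003 over PBS the ratio was 0.617 (0.557 to 0.682), and for A438079 over PBS 0.649 (0.586 to 0.717). Its counts were fractional, and GTF2H4, a transcription factor subunit gene on the same strand, overlaps it over 5865 bases. Summed with GTF2H4, the ratios were 0.689 (0.636 to 0.747) and 0.708 (0.653 to 0.767), short of 1.5-fold. GTF2H4 alone stood at 0.841 and 0.832 times PBS, so adding it moves the ratio towards 1 whether or not reads were shared. Sharing of reads was not tested.

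AARS2 (ENSG00000124608; chromosome 6, 44299654 to 44313326, minus strand) had 199 counts with PBS, 104 with A438079 and 113 with A740003. Again both antagonist libraries lay below PBS. The ratio was 0.555 (0.437 to 0.703) with A740003 and 0.523 (0.409 to 0.667) with A438079. The cytosolic alanine gene AARS1 had 4984, 4906 and 4982 counts in the PBS, A438079 and A740003 libraries. Its ratios of 0.978 (0.940 to 1.02) and 0.986 (0.948 to 1.03) with A740003 and A438079 had intervals that include 1.

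Just outside 1.5-fold with A740003 was PARS2, with 92 counts against 119 with PBS, a ratio of 0.756 (0.570 to 1.001). With A438079 the next lowest was SARS2, the mitochondrial serine enzyme, with 267 against 318 counts and a ratio of 0.841 (0.712 to 0.993). Just inside 1.5-fold was VARS2 in both libraries.

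**Figure D2:**
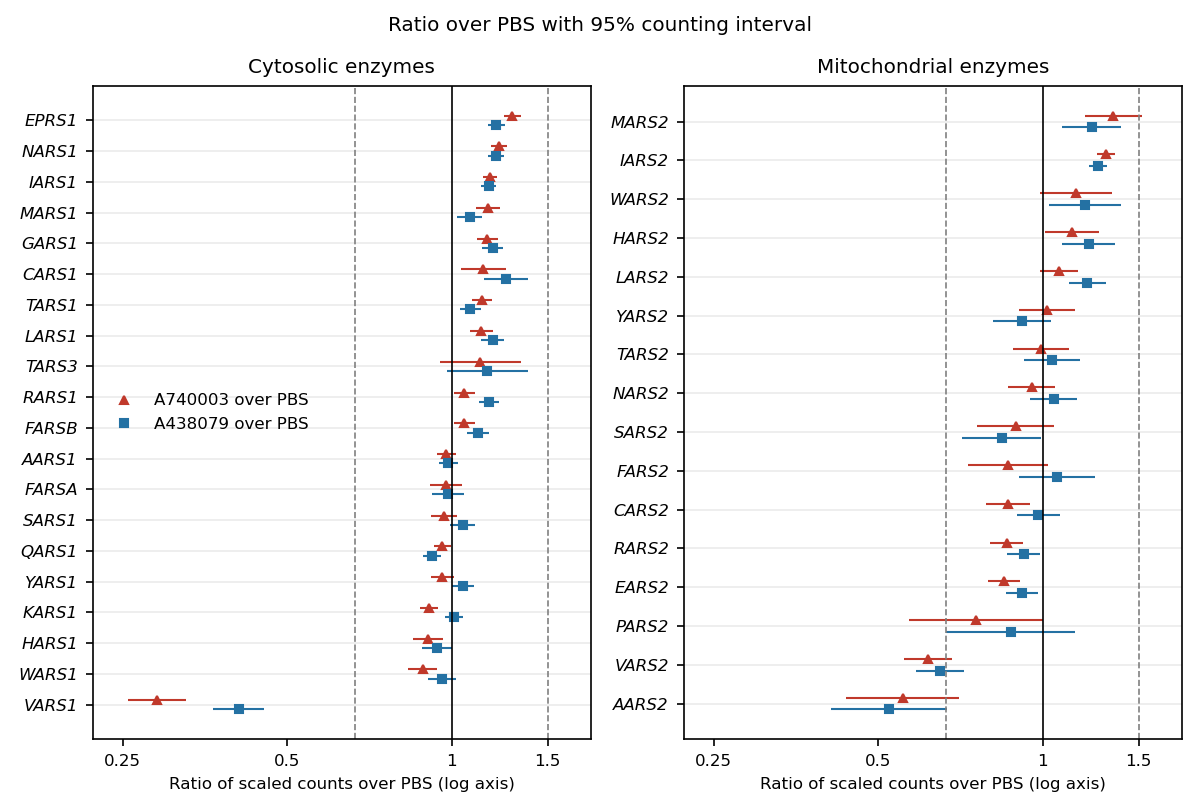
Ratio of scaled counts over PBS for 36 of the 38 genes on a log axis, A740003 as triangles and A438079 as squares, with 95% counting intervals as bars and dashed lines at 1.5-fold. VARS1 (0.289 and 0.407), VARS2 and AARS2 lie left of the lower dashed line in both libraries, and no point lies right of the upper line.

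The low members shared features that the choice of genes did not use. All 3 lie on chromosome 6, as do FARS2 and RARS2, which were not past 1.5-fold. Their GENCODE release 29 transcripts had a GC content of 62.6% (VARS1), 60.4% (VARS2) and 59.3% (AARS2) and lengths of 4312, 3566 and 3854 nt, against medians of 48.3% and 2942 nt over all genes tested. SARS2 and FARSA were as rich in GC, at 61.9% and 60.3%, but short, at 1630 and 2057 nt. FARSA, a subunit gene of the cytosolic phenylalanine enzyme, stood at 0.975 (0.911 to 1.04) and 0.986 (0.921 to 1.06) times PBS with A740003 and A438079. SARS2 stood lower, at 0.892 (0.758 to 1.05) and 0.841 (0.712 to 0.993).

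Genes at large with those features differed from PBS in the same way. Of 439 genes with a GC content of at least 59% and a length of at least 3500 nt, limits set after the members' values were seen, 77.4% were at least 1.5-fold lower with A740003 and 66.3% with A438079. Their median log2 ratios were -1.10 and -0.86. VARS1 was lower than those medians, at -1.79 and -1.30. VARS2, at -0.70 and -0.62, was above both. AARS2, at -0.85 and -0.93, was above the first and below the second. Of 820 genes as rich in GC but under 2100 nt, 10.6% and 11.5% were at least 1.5-fold lower.

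When the median of the genes closest to it in both GC content and length was subtracted, the log2 ratio of VARS1 was -0.74 with A740003 and -0.49 with A438079. That left VARS1 past 1.5-fold with A740003 and no member past it with A438079. Of those closest genes, 11.4% had a lower log2 ratio than VARS1 with A740003 and 11.9% with A438079. The values for VARS2 became -0.18 and -0.16, and those for AARS2 became -0.36 and -0.50. What GC content and length contribute to the low counts was not tested beyond this.

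Across the 38 members, the log2 ratio and GC content had a Pearson correlation of -0.63 (Spearman -0.62) with A740003 and -0.66 (-0.65) with A438079. Without VARS1, VARS2 and AARS2 the Pearson values over 35 genes were -0.54 and -0.59. Over all 11905 tested genes with a GC value they were -0.36 and -0.38. These are descriptions across genes that share libraries and the PBS control. Between the antagonist libraries, which leaves PBS out, the value was -0.21 over the members and -0.04 over all genes. Of all genes tested, 49.1% were below PBS with A740003 and 50.5% with A438079. The 7 members of at least 56% GC were all below PBS in both libraries. Of the 12 members of 50 to 56% GC, 9 were below PBS with A740003 and 5 with A438079. Of the 19 members under 50% GC, 3 were below PBS with A740003 and 2 with A438079.

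Chromosome 6 neighbours did not share one direction. Within 200 kb of VARS1, 24 other genes had a mean of at least 5 CPM. Of them, 4 were 1.5-fold or more below PBS with either antagonist, against 10.6% of all genes tested with A740003 and 9.44% with A438079. Of the 24 genes, 14 were below PBS by any amount with A740003 and 13 with A438079. The median log2 ratio of the 24 was -0.06 with A740003 and -0.02 with A438079. None of the 7 such neighbours of AARS2 was 1.5-fold lower with A740003, and 1 was with A438079. Among the 5 near VARS2, 1 was lower in each.

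**Figure D3:**
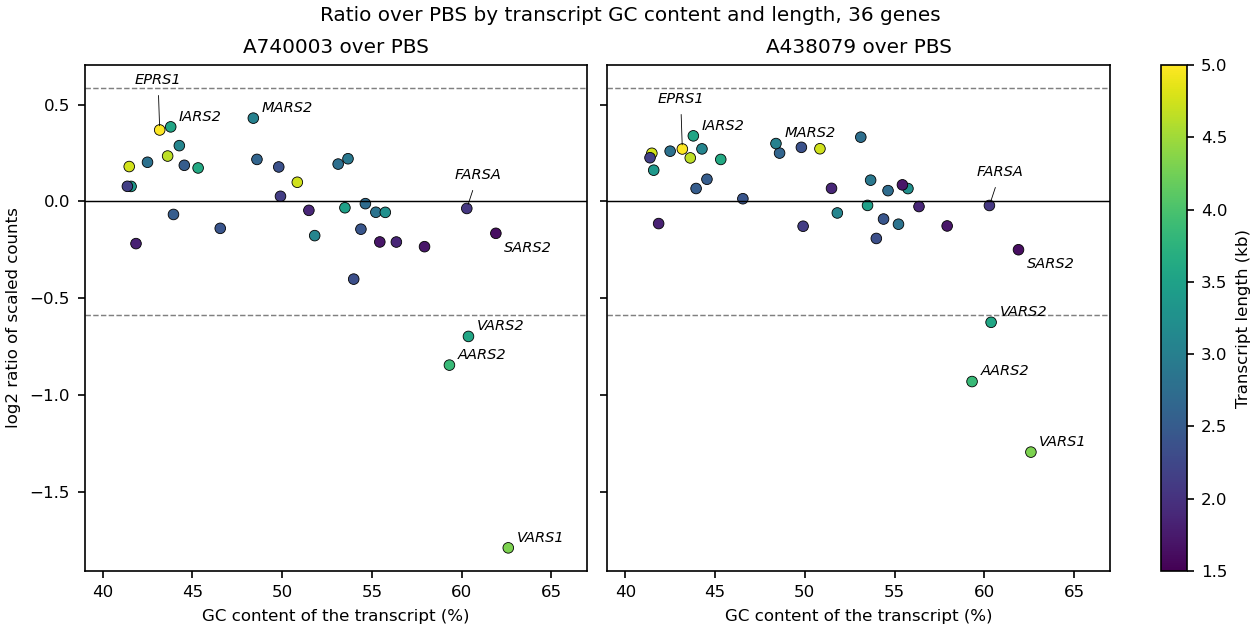
Log2 ratio of scaled counts over PBS against the GC content of the transcript for 36 of the 38 genes, A740003 on the left and A438079 on the right, coloured by transcript length in kb, with dashed lines at 1.5-fold. VARS1, VARS2 and AARS2, long and rich in GC, lie below the lower line. The short SARS2 and FARSA at like GC content lie between the dashed lines, FARSA near 0 and SARS2 at -0.16 and -0.25.

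The cytosolic enzymes apart from VARS1 stayed near PBS. Of the 21, 11 had an interval wholly above 1 in each antagonist library, and 5 with A740003 and 3 with A438079 had an interval wholly below 1. Over all genes tested, 26.6% and 22.9% had an interval wholly above 1, and 26.2% and 23.2% wholly below. The median log2 ratio of the cytosolic members was 0.08 with A740003 and 0.11 with A438079, against 0.005 and -0.004 over all genes. With the 13 cytosolic members of whole counts alone, the A740003 value changed sign, to -0.0325. The summed counts of all 21 stood at 1.07 (1.05 to 1.08) and 1.09 (1.07 to 1.10) times PBS.

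EPRS1, a single protein that loads both glutamate and proline and belongs to both classes, was the highest cytosolic member with A740003. It had 7075 counts with A740003, 6454 with A438079 and 5357 with PBS, with ratios of 1.29 (1.25 to 1.34) and 1.21 (1.16 to 1.25). After the GC and length step its log2 ratios went from 0.37 and 0.27 to 0.18 and 0.10, and CARS1, MARS1 and GARS1 stood above it with A740003. NARS1 had 7966, 7689 and 6380 counts in the same order, and ratios of 1.22 (1.18 to 1.26) and 1.21 (1.17 to 1.25). CARS1, the cytosolic cysteine enzyme, was the highest cytosolic member with A438079, with 1027 counts against 817 with PBS and a ratio of 1.26 (1.15 to 1.38). With A740003 it had 955 counts and a ratio of 1.14 (1.04 to 1.26).

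The multisynthetase complex holds 8 of the cytosolic members, EPRS1, IARS1, KARS1 and QARS1 among them. Of these, 6 had an interval wholly above 1 in each antagonist library, against 26.6% of all genes with A740003 and 22.9% with A438079, and none was past 1.5-fold. The median log2 ratio was 0.15 with A740003 and 0.21 with A438079. After the GC and length step these became 0.05 and 0.10. Their median GC content was 43.4%, against 51.8% in the 13 cytosolic members outside the complex, whose median log2 ratios were -0.03 and 0.07, and 0.09 and 0.07 after that step. With A740003 the order of the complex and the other cytosolic members was thus turned by the step. Of the 3 scaffold genes, none was past 1.5-fold. EEF1E1 stood at 0.829 (0.791 to 0.868) and 0.940 (0.898 to 0.984) times PBS with A740003 and A438079. AIMP1 stood at 0.896 (0.855 to 0.939) and 0.982 (0.938 to 1.03), and AIMP2 at 1.01 (0.918 to 1.11) and 1.11 (1.01 to 1.21).

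The 7 cytosolic members with the element printed above were AARS1, CARS1, GARS1, IARS1, MARS1, NARS1 and TARS1. All but AARS1 had an interval wholly above 1 in both antagonist libraries, against 26.6% of all genes with A740003 and 22.9% with A438079. Apart from AARS1, the ratios were 1.14 to 1.22 with A740003 and 1.08 to 1.26 with A438079. The median log2 ratio of the 7 was 0.22 with each antagonist. After the GC and length step it was 0.17 and 0.15. The 9 cytosolic members with a window that lacks those letters had medians of -0.05 and 0.01, and of -0.04 and 0.06 after the step. Of these 9, 3 had an interval wholly above 1 in each antagonist library. The step narrowed the gap between the sets most with A438079. The difference between these sets was not tested. YARS2, the mitochondrial member with the letters, stood at 1.02 (0.905 to 1.15) and 0.915 (0.810 to 1.03) times PBS.

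Genes of the amino acid starvation response were set beside them. Of 24 listed, 22 passed the filter, and with either antagonist 3 were called lower and none higher, against 10.6% of all genes called lower with A740003 and 9.44% with A438079. Their median log2 ratio was -0.02 with A740003 and -0.13 with A438079. ATF4 itself, which is regulated mainly in translation, stood at 1.09 (1.05 to 1.12) and 1.01 (0.970 to 1.04) times PBS. ASNS, the asparagine synthetase gene and an ATF4 target, stood at 1.01 (0.947 to 1.07) and 1.06 (0.9997 to 1.13). TRIB3, a pseudokinase gene induced by ATF4, stood at 0.463 (0.410 to 0.521) and 0.466 (0.413 to 0.525). GCN1, which helps the kinase GCN2 sense uncharged tRNA, stood at 0.430 (0.395 to 0.469) and 0.530 (0.489 to 0.574). NUPR1, a stress-induced gene, stood at 0.868 (0.692 to 1.09) and 0.587 (0.453 to 0.756), and SESN2, which encodes a leucine sensor, at 0.577 (0.457 to 0.726) and 0.679 (0.544 to 0.846). SLC7A11, a cystine transporter gene and ATF4 target, stood at 1.34 (1.25 to 1.45) and 1.26 (1.17 to 1.36). Of the 22, 7 had an interval wholly above 1 and 7 wholly below with A740003, against 26.6% and 26.2% of all genes. With A438079, 4 were wholly above and 10 wholly below, against 22.9% and 23.2% of all genes. After the GC and length step TRIB3 stayed past 1.5-fold, at log2 ratios of -1.01 and -0.91, and so did NUPR1 with A438079, at -0.77. GCN1 stayed past it with A740003 (-0.60) and not with A438079 (-0.38), and SESN2 became -0.41 and -0.20.

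FARSA and FARSB encode the subunits of the cytosolic phenylalanine enzyme. FARSB had 3635 counts with PBS, 4059 with A438079 and 3922 with A740003, and ratios of 1.06 (1.01 to 1.10) with A740003 and 1.12 (1.07 to 1.17) with A438079. FARSA had 1691, 1664 and 1686 counts in the PBS, A438079 and A740003 libraries. Per length, FARSA was the higher, at 56.9 against 28.9 FPKM with PBS.

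TARS1 and TARS3 are paralogs for threonine in the cytosol. TARS1 had 4111 counts with PBS, 4444 with A438079 and 4784 with A740003, with ratios of 1.14 (1.09 to 1.19) and 1.08 (1.04 to 1.13) for A740003 and A438079. TARS3 had 255, 296 and 294 counts in the order PBS, A438079 and A740003, and both intervals include 1. Per length TARS3 was the lowest cytosolic member with PBS, at 8.20 FPKM against 96.2 for TARS1.

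GARS1, the glycine enzyme of both compartments, had 3707 counts with PBS, 4401 with A438079 and 4406 with A740003, with ratios of 1.19 (1.14 to 1.24) for A438079 and 1.16 (1.11 to 1.21) for A740003. KARS1 had 5511, 5556 and 5117 counts in the PBS, A438079 and A740003 libraries. Its ratio was 0.908 (0.874 to 0.944) with A740003 and 1.01 (0.973 to 1.05) with A438079. TERF2IP overlaps KARS1 on the opposite strand, and whether the counting used strand was not stated. GARS1 lay above PBS in both antagonist libraries, and KARS1 lay below it with A740003 by more than counting error.

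By the quartiles of the log2 ratio, mitochondrial members were more spread than cytosolic members. The quartiles were -0.22 and 0.16 against -0.06 and 0.19 with A740003, and -0.13 and 0.26 against -0.02 and 0.23 with A438079. The full range was wider for cytosolic members, which include VARS1, at -1.79 to 0.37 against -0.85 to 0.43 with A740003. The median log2 ratio of the 17 mitochondrial members was -0.07 with A740003 and 0.06 with A438079. Among the 7 with whole counts it was 0.10 and 0.26, so the first value changed sign. With A740003, 4 had an interval wholly above 1 and 5 wholly below. With A438079 the counts were 6 and 5. Over all genes 26.6% and 26.2% were above and below with A740003, and 22.9% and 23.2% with A438079, so the mitochondrial counts below 1 were near that background. MARS2, the mitochondrial methionine enzyme, was the highest of all members with A740003, with 645 counts against 468 with PBS. That is a ratio of 1.35 (1.195 to 1.52). With A438079 it had 575 counts and a ratio of 1.23 (1.09 to 1.39). IARS2 had 6505 counts with A740003, 6151 with A438079 and 4871 with PBS, with ratios of 1.31 (1.26 to 1.36) and 1.26 (1.22 to 1.31). IARS2 lies within 200 kb of EPRS1 on chromosome 1, and both were among the highest members. Of the 4 other genes of at least 5 CPM in that window of EPRS1, IARS2 included, 2 were below PBS with either antagonist. IARS2 had log2 ratios of 0.30 and 0.25 after the GC and length step, and MARS2 had 0.43 and 0.27.

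The route to mitochondrial glutamine tRNA needs no glutamine synthetase: EARS2 loads glutamate, and an amidotransferase of QRSL1, GATB and GATC converts it. EARS2 had 1824 counts with PBS, 1668 with A438079 and 1586 with A740003. Its ratio over PBS was 0.850 (0.795 to 0.910) with A740003 and 0.916 (0.857 to 0.979) with A438079, both below PBS by more than counting error. UBFD1, on the opposite strand, overlaps it over 370 bases and had 3200 counts with A740003 against 2515 with PBS. Summed with UBFD1, the locus stood at 1.08 (1.04 to 1.12) and 1.01 (0.965 to 1.05) times PBS. UBFD1 made up most of that sum, which therefore does not give the direction of EARS2 itself. The expected counts of EARS2 were whole with PBS and A438079, and 1586.07 with A740003. Whether reads were shared between the genes was not tested. QRSL1, GATB and GATC stood at 0.826 (0.747 to 0.914), 0.834 (0.767 to 0.907) and 0.885 (0.811 to 0.967) times PBS with A740003. With A438079 the same genes stood at 0.943 (0.855 to 1.04), 0.912 (0.840 to 0.991) and 0.928 (0.850 to 1.01). MTFMT, which formylates the initiator methionine tRNA, stood at 0.796 (0.647 to 0.979) and 1.002 (0.823 to 1.22). None of these was past 1.5-fold.

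The histidine genes HARS1 (cytosolic) and HARS2 (mitochondrial) are transcribed away from each other on chromosome 5, and their RefSeq starts are separated by 84 bases. HARS1 had 2045 counts with PBS, 1917 with A438079 and 1893 with A740003. HARS2 had 580, 703 and 671 counts in the same order. They stood on opposite sides of PBS: HARS1 at 0.905 (0.850 to 0.964) with A740003 and 0.939 (0.882 to 0.9998) with A438079. HARS2 was at 1.13 (1.01 to 1.27) and 1.21 (1.09 to 1.36). Both had fractional counts, and their gene models overlap over 437 bases. ZMAT2 overlaps HARS2 on the same strand over 639 bases, with 2579 to 2779 counts. HARS1 and HARS2 summed, without ZMAT2, stood at 0.955 (0.904 to 1.01) and 0.9997 (0.947 to 1.06) times PBS, both intervals including 1. HARS1 made up most of that sum, which therefore does not give the direction of HARS2 itself. Whether reads were shared between these genes was not tested.

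Genes of the factors that take charged tRNA to the ribosome, and of their exchange factors, were also listed. All 4 measured cytosolic elongation factor genes of 5 listed stood below PBS with intervals wholly below 1 in both libraries, against 26.2% and 23.2% of all genes, and none was past 1.5-fold. EEF1A1 stood closest to PBS, at 0.948 (0.944 to 0.952) with A740003 and 0.995 (0.991 to 0.9996) with A438079. EEF1D, an exchange factor subunit, stood at 0.896 (0.861 to 0.933) and 0.945 (0.908 to 0.983) times PBS with A740003 and A438079. After the GC and length step its log2 ratios were 0.26 and 0.32, above the median of the genes closest to it in both features. EEF1B2, another exchange factor subunit, was the lowest by counts, at 0.804 (0.787 to 0.821) with A740003 and 0.877 (0.859 to 0.895) with A438079. Of the mitochondrial factors, TSFM stood at 1.27 (1.16 to 1.40) with A740003 and 1.08 (0.974 to 1.19) with A438079. TUFM stood at 0.918 (0.876 to 0.963) and 0.965 (0.921 to 1.01). Of 7 genes for tRNA proofreading, selenocysteine tRNA, end processing and export, none was past 1.5-fold in either library. SEPSECS, which makes selenocysteine on its tRNA, stood highest, at 1.34 (1.18 to 1.53) and 1.25 (1.10 to 1.43) times PBS. AARSD1, an editing protein related to alanine synthetases, stood at 0.726 (0.620 to 0.850) and 0.980 (0.847 to 1.13).

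A740003 was then set against A438079, with dose and duration matched; no test across cultures was possible. No member was past 1.5-fold in either direction, against 2.74% of all genes lower and 2.5% higher with A740003 than with A438079. Of the 38 members, 26 were lower with A740003, against 49.8% of all genes. An interval wholly below 1 was seen for 15 members and wholly above 1 for 4, against 16.8% and 16.1% of all genes. The median log2 ratio was -0.05 for cytosolic and -0.07 for mitochondrial members.

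VARS1 had the widest difference, at 0.709 (0.615 to 0.818) times the A438079 level, a log2 ratio of -0.49. Of the 439 long genes rich in GC, 19.6% were called lower here, with a median log2 ratio of -0.25. After the GC and length step VARS1 stood at -0.24 and FARS2, at -0.30, was the lowest member. By counts FARS2, the mitochondrial phenylalanine enzyme, followed at 0.815 (0.690 to 0.962), with 267 against 320 counts. KARS1 stood at 0.899 (0.866 to 0.934) and RARS1, the cytosolic arginine enzyme, at 0.903 (0.866 to 0.941). The members above 1 by more than counting error were MARS1 at 1.08 (1.03 to 1.13), EPRS1 at 1.07 (1.03 to 1.11), TARS1 at 1.05 (1.01 to 1.10) and QARS1 at 1.04 (1.005 to 1.08). The intervals for VARS2, 0.951 (0.850 to 1.06), and AARS2, 1.06 (0.806 to 1.40), include 1, so a difference between the antagonists was not detectable for them at this depth.

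**Figure D4:**
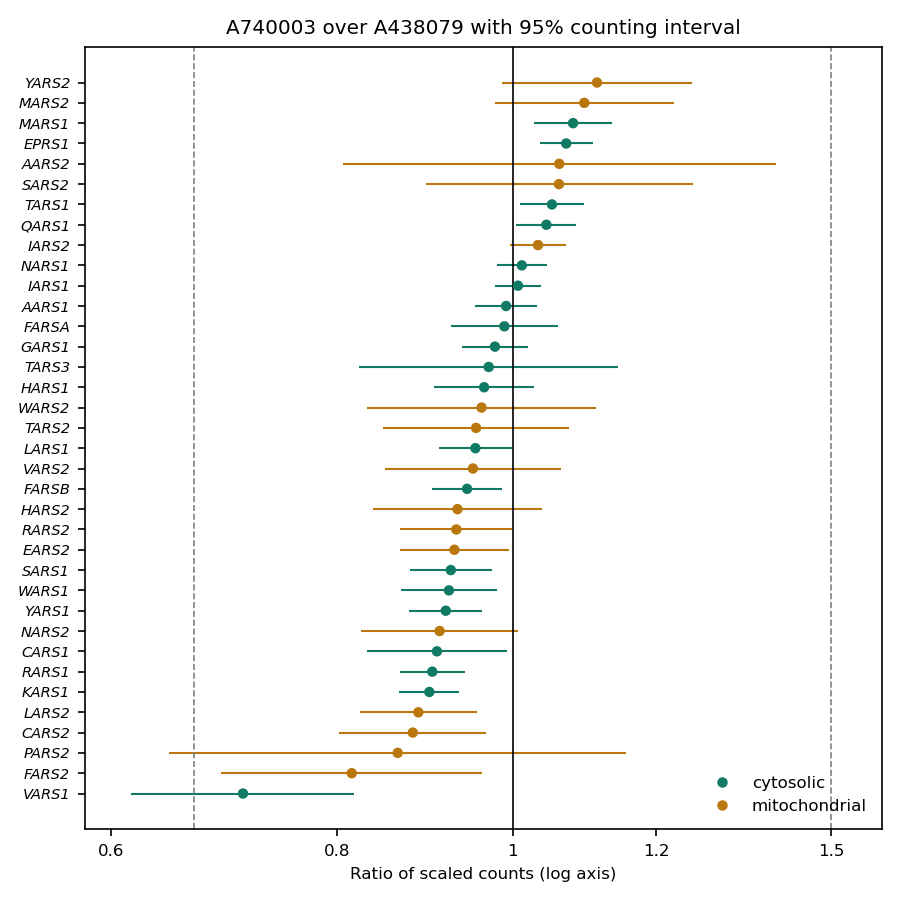
Ratio of scaled counts in the A740003 library over the A438079 library for 36 of the 38 genes on a log axis, sorted, cytosolic enzymes in green and mitochondrial in ochre, with 95% counting intervals as bars and dashed lines at 1.5-fold. All points lie between the dashed lines, with VARS1 at the lower end (0.709), and most lie below 1.

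FPKM and counts differed for a few members. The difference was expressed as an implied length, the expected count divided by the FPKM, relative to the median gene. This implied length restates the difference, and whether transcript lengths differed between libraries was not tested. For MARS1, the cytosolic methionine enzyme, it stood at 0.797 times PBS with A740003 and 0.647 times with A438079. MARS1 had 2816 counts with PBS, 3034 with A438079 and 3355 with A740003, but 60.7, 98.5 and 88.2 FPKM. Its ratio over PBS was therefore 1.17 (1.11 to 1.23) by counts and 1.45 by FPKM with A740003, and 1.08 (1.02 to 1.14) by counts and 1.62 by FPKM with A438079. By FPKM, MARS1 would be past 1.5-fold with A438079. DDIT3, a stress-response gene on the opposite strand, overlaps MARS1 over 982 bases, with 188 to 267 counts.

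Lengths longer than with PBS were read for VARS1 (1.26 times), VARS2 (1.27 times), EARS2 (1.22 times) and TARS3 (1.42 times) with A740003. With A438079 they were 1.04, 1.09, 1.04 and 1.10 times. Among genes with at least 5 CPM, 11.0% had a length more than 1.2-fold from PBS with A740003 and 10.1% with A438079, against 5 and 1 of the 38 members. VARS1 by FPKM stood at 0.228 and 0.382 times PBS, below its count ratios, and at 0.597 times when A740003 was set over A438079.

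**Figure D5:**
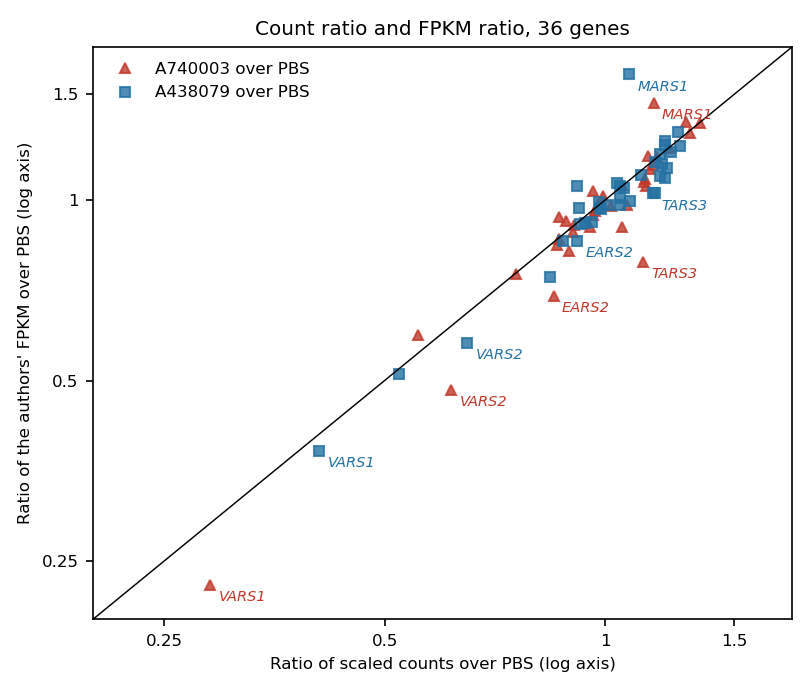
Ratio of the authors' FPKM over PBS against the ratio of scaled counts over PBS for 36 of the 38 genes, both on log axes, A740003 as triangles and A438079 as squares, with the line of equality. MARS1 lies above the line in both libraries (1.45 and 1.62 by FPKM), and TARS3, EARS2, VARS1 and VARS2 lie below it with A740003.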

How the data were processed

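Total RNA from RNeasy extraction was made into SMARTer mRNA-seq libraries, per the labels' protocols. The authors deposited expected counts per gene, estimates that need not be whole, and FPKM values per gene. The submitters' processing notes name GRCm38, a mouse build, although the rows are human genes. No source used here gives the aligner, the counter, the annotation or the use of strand. Columns were matched to samples by the letter in each label. The 116 rows without an Ensembl identifier held 0.0775% to 0.0853% of counts and stayed in the totals.

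Expected counts were rounded. TMM factors from edgeR 4.0.16 under R 4.3.3 were 0.990 (A438079), 1.00 (PBS) and 1.01 (A740003). Genes whose mean reached 1 CPM, which was 19.4 to 19.9 counts, numbered 12270 and were compared. A call needed a 1.5-fold ratio and a 95% interval without 1, from the conditional binomial distribution (Clopper-Pearson, exact). For log2 ratios 0.5 counts were added. The design assumed this test for 1 library per group, so no p-value is given. Counts were whole within 0.005 in all libraries for 20 members, and reads of the other 18 may be shared with other genes.

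GC content and length came from the GENCODE release 29 (GRCh38) transcript with the longest coding part, for 11905 of the 12270 genes and all 38 members, and coordinates from the same release by gene identifier. Counts and medians cover all 38 members, 2 of which are not reported singly here or drawn. Full values were given for called members, the 3 highest and 3 lowest by FPKM with PBS, and enzymes with a special role, and up to 4 genes of each other list by size of change, to which ATF4, ASNS and SLC7A11 were added for their role. Members, lists and the rule were chosen with earlier results of these data known, and other genes were named after their values were seen. Scripts were checked on simulated data. Alternatives were size factors of DESeq2 1.42.0, upper quartile factors, no factor, other filters, unrounded counts, the GC and length step, FPKM with pseudocounts of 0.1 and 1, 2-fold, leaving out GARS1 and KARS1, and, added after the data were seen, whole counts only.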

Additional observations from a re-analysis of the deposited data

How the results depend on the processing

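No paired analysis was possible because each treatment had 1 library. The counts of members at least 1.5-fold lower over PBS, 3 with each antagonist, became 1 and 0 with the GC content and length trend removed (A740003 and A438079 in that order), 1 and 1 at 2-fold, and 1 and 1 with whole counts only, where VARS2 and AARS2 drop out of the set tested. With FPKM and either pseudocount, 1 member (MARS1) was at least 1.5-fold higher with A438079, 1 (VARS1) was at least 1.5-fold lower with A740003 than with A438079, and the cytosolic median log2 ratio with A438079 was 0.0379 (pseudocount 0.1) and 0.0376 (pseudocount 1). With whole counts only, which leaves 13 cytosolic and 7 mitochondrial members, the cytosolic median with A740003 changed sign, to -0.0325, as did the mitochondrial median, to 0.10, and the mitochondrial median with A438079 was 0.26; fewer genes enter these medians. With FPKM and pseudocount 1, AARS2 was no longer past 1.5-fold with A740003 (log2 ratio -0.47), which left 2 members lower. Counting that one, 114 recomputed counts and medians stayed near the reported value. Near means within 1.5 times, or within the median half-width of the members' counting intervals. None of these medians changed sign. Another 14 moved further, among them the mitochondrial sign change above, and 1 was classed as reversed, the cytosolic median with A740003. The other filters could not move members, which all had at least 5.37 mean CPM. Counts of 0 at 1.5-fold could not rise at 2-fold. No scaling moved the median of all genes by as much as 0.1 on the log2 scale. Depth limits AARS2 and PARS2 most, with 92 to 199 counts per library.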
